A study of Homo sapiens with 6 samples.

Results

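The 10 genes described here are 5 transcription factors that drive or accompany the change of epithelial cells to a mesenchymal state, ZEB1, ZEB2, SNAI1, SNAI2 and TWIST1, and 5 structural or secreted markers of that state, VIM, S100A4, SPARC, ACTA2 and TAGLN. All probe sets that the platform annotation gives to exactly 1 of these symbols were taken, which were 14 of the 22277 probe sets on the array and stand for 10 of 11963 genes with a symbol of their own. The arrays came from A-498, an established human renal cell carcinoma line, grown as a monolayer in RPMI-1640 medium with serum. There were 3 untreated cultures and 3 cultures with 1000 µM zebularine, a cytidine analogue that inhibits DNA methyltransferases, and both groups were kept for 120 h. Each of 3 numbered replicates, called experiments here, has 1 untreated and 1 treated array, and the titles call the replicates biological. The arrays describe 1 cell line, at 1 dose and 1 time, and the tests cover no more than the spread among these 6 cultures.

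In the epithelial-mesenchymal transition, epithelial cells lose cell-cell junctions and polarity and take on a motile, spindle-like form. ZEB, SNAI and TWIST proteins are DNA-binding factors that repress junction genes such as CDH1, the gene of E-cadherin, by way of short E-box sequences. Renal carcinoma cells often hold vimentin beside their keratins. Zebularine acts at CpG dinucleotides, where DNA methylation in human cells is placed.

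Values are MAS5 signals, in linear units scaled by the authors to a common level on each array. Differences are zebularine minus untreated on a log2(signal + 16.34) scale, and a probe set was tested if it reached a signal of 78.6 on at least 3 arrays. Of the 14 probe sets 10 passed, for 8 genes; no probe set of TWIST1 or TAGLN passed, and 1 each of ZEB1 and ACTA2 did not. The test was limma over all 13545 tested probe sets, and a call needed a Benjamini-Hochberg adjusted p under 0.05. Same-numbered arrays deviated together, so the fit with the experiment as a block is given where it changes a call. Levels of different probe sets cannot be set against each other.

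The arrays had medians from 118 to 141 signal units, and both arrays of experiment 3 had lower maxima, 31176 and 28720.5, against 66290 to 71174 on the other 4. The ratio of 3' to 5' GAPDH signal, a sign of RNA integrity, was lower on the treated array in every experiment, at 1.34 against 1.52, 1.16 against 1.19 and 1.01 against 1.07. That of ACTB was higher on the treated array in experiment 1, at 5.25 against 3.1, and lower in experiments 2 and 3, at 2.06 against 2.38 and 1.49 against 1.71. The part of these ratios in the results below was not tested. Of 15 kidney and renal carcinoma markers on the array 8 were bright enough to test. LHX1, CDH16, LRP2, CUBN, AQP1, SLC17A3 and EPCAM were not. Among the tested ones, the renal lineage factor PAX8 was at 1034 to 1237 on untreated and 636 to 1094 on treated arrays. KRT18, a keratin of simple epithelia, was at 16347 to 21526 and 12161 to 16546. Of 9 fibroblast markers 2 were bright enough to test. The summed signal of all probe sets of the 9, dim ones included, was higher on the treated array in each experiment, at 1579.8 against 1160.0, 1288 against 1225 and 1094 against 844. This was not particular to fibroblasts: the sums for smooth muscle, endothelial and leukocyte markers were also higher in each experiment. Those for kidney and renal carcinoma markers and for epithelial markers were lower in each. Within the fibroblast sum COL1A1, at its brightest probe set, went from 276.8, 183.3 and 130.3 to 580.0, 246.6 and 367.8. COL1A2 went the other way, from 47.7 to 98.7 on untreated to 6.7 to 40.1 on treated arrays. FAP, another of the 9, was at 3.4 to 16.9 on all 6 arrays. The part of these markers in the results was not tested either. CDH1 was too dim to test, with signals from 5.5 to 64.5.

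ZEB1 and SPARC were the members with a call, ZEB1 higher and SPARC lower after zebularine, and both calls needed the pairing of the experiments. In RNA from a whole culture, a change in every cell and a change in the share of cells with the transcript cannot be told apart. Without the block limma called 0 of the 10 tested member probe sets, where it called 0.62% of all tested probe sets; at an unadjusted p under 0.05 there were 3 member probe sets, and 12.6% of all. With the block it called 2 members, where 4.22% of all tested probe sets were called, 1.9% higher and 2.32% lower. Over the experiments, 9 of the 10 had the same sign in all 3, against 42.7% of all tested probe sets. In 4 of the 10 the treated and untreated groups did not overlap, against 17.6% of all. The members were chosen with earlier results of these data known, so these counts are not independent evidence of a response.

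By mean difference the transcription factors lay higher after zebularine, except SNAI1, but only ZEB1 212764_at was called, and only with the block. Of their 5 tested probe sets 4 were higher in all 3 experiments and 1 was lower, against 20.9% and 21.8% of all tested probe sets. These include ZEB1 212758_s_at, whose signals in experiment 3 were 127.3 and 127.4. They had a median log2 difference of 0.38, while over all tested probe sets the median was -0.01. The structural markers had a median of -0.29 over 5 tested probe sets, with 3 lower and 1 higher in all 3 experiments. By experiment the factors' median was 0.48, 0.23 and 0.20, and that of the markers was -0.28, -0.75 and -0.19. These medians describe few probe sets that partly share a gene, and the difference between the classes was not tested.

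ZEB1 encodes a zinc finger and homeodomain protein and is one of the main repressors of E-cadherin. At its probe set 212764_at the signal was 296, 190.5 and 266 on the untreated arrays of experiments 1, 2 and 3, and 553, 413 and 546 on the treated arrays. The groups did not overlap: the dimmest treated array lay above the brightest untreated one. The means were 251 ± 54.4 and 504 ± 79.1 (SD, n = 3). The log2 difference was 0.97 ± 0.28 (standard error; limma, adjusted p = 0.178), with a 95% interval of 0.36 to 1.58. With the block this difference had a standard error of 0.24 and passed (limma, adjusted p = 0.0413). The 3 experiments were alike, with differences of 0.87, 1.05 and 1.00. The call with the block ended without experiment 1, 2 or 3 (limma, adjusted p = 0.158, 0.0508 and 0.137) and without the filter on dim probe sets (limma, adjusted p = 0.0896), while the difference stayed between 0.93 and 1.02.

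The other ZEB1 probe sets did not pass. At 212758_s_at the untreated signals were 117, 224 and 127 and the treated signals 192, 323 and 127. Experiments 1 and 2 were higher after zebularine by 0.65 and 0.49, experiment 3 was level at 0.00, and the groups overlapped. The mean difference was 0.38 ± 0.40 (limma, adjusted p = 0.741; 0.524 with the block), and it was 0.06 without the treated array of experiment 2. The third, 210875_s_at, was too dim to test, with untreated signals of 50.5, 71.3 and 61.9 and treated signals of 58.7, 78.6 and 182. Its higher treated mean came from experiment 3, where the difference was 1.34 against 0.17 and 0.12.

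The sequence before the ZEB1 start is shown because zebularine acts on CpG methylation and ZEB1 was the factor with a call; CpG dinucleotides are in capitals. RefSeq (GRCh38.p14) lists 7 starts for ZEB1 within a short stretch of chromosome 10, and these are the 250 bases before the most upstream, chr10:31318167-31318416 on the plus strand, written 5′ to 3′.
ZEB1: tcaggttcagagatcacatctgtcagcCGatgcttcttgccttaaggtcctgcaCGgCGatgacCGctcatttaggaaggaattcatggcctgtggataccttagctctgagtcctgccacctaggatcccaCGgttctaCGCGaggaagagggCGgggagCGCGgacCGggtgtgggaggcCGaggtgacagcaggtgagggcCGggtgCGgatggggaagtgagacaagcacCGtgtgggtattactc
This window holds 15 CpG dinucleotides, against a median of 11 over 35116 RefSeq promoter windows of that length. The 7 ZEB1 windows ran from 7 to 27. E-box letters CACCTG or, on the other strand, CAGGTG occurred 1 time in the printed window and in 17.5% of all windows. Methylation was not measured, nor which start the cells use, so these counts describe the sequence alone.

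ZEB2, the paralogue of ZEB1 and likewise a repressor of E-cadherin, lay slightly higher at its 1 probe set. The untreated signals were 91.9, 124 and 121 and the treated signals 128, 143 and 142. The groups did not overlap, but only narrowly: the brightest untreated array was at 124.3 and the dimmest treated one at 128.1. The difference was 0.26 ± 0.38 (limma, adjusted p = 0.818; 0.73 with the block), with a 95% interval of -0.55 to 1.08. The experiments gave 0.42, 0.18 and 0.20.

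SNAI1, the zinc finger repressor Snail, was the factor that lay lower. Its signals were 227, 207.5 and 195 on untreated and 139, 188 and 115 on treated arrays. Every treated array lay below every untreated one. The difference was -0.49 ± 0.33 (limma, adjusted p = 0.584; 0.397 with the block), and the interval ran from -1.21 to 0.23. Experiments 1 and 3 were close at -0.65 and -0.69, and experiment 2 gave -0.13.

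SNAI2, the related repressor Slug, had the largest mean difference of the tested factors, but experiment 3 set its size. Untreated signals were 88.9, 133.5 and 58.3 and treated signals 130, 160 and 399.5. The groups overlapped, because untreated 2 lay above treated 1. The difference was 1.06 ± 0.47 (limma, adjusted p = 0.372; 0.2 with the block). By experiment it was 0.48, 0.23 and 2.48, and without experiment 3 it was 0.35.

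TWIST1, a basic helix-loop-helix factor of mesoderm and neural crest, stayed under the filter. Its signals were 6.6, 2.4 and 19.2 on untreated and 52.1, 108 and 50.5 on treated arrays. All treated arrays were above all untreated ones, as in 6.74% of the probe sets too dim to test, yet only treated 2 reached the filter signal. The differences were 1.58, 2.73 and 0.91, with a mean of 1.74. Fitted without the filter, it did not pass (limma, adjusted p = 0.24; 0.134 with the block). At such dim signals the size follows the pseudocount: the mean was 2.58 with one 4 times smaller and 0.84 with one 4 times larger. Whether the dim untreated values hold any TWIST1 transcript is not known, since detection calls were not used here.

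**Figure D1:**
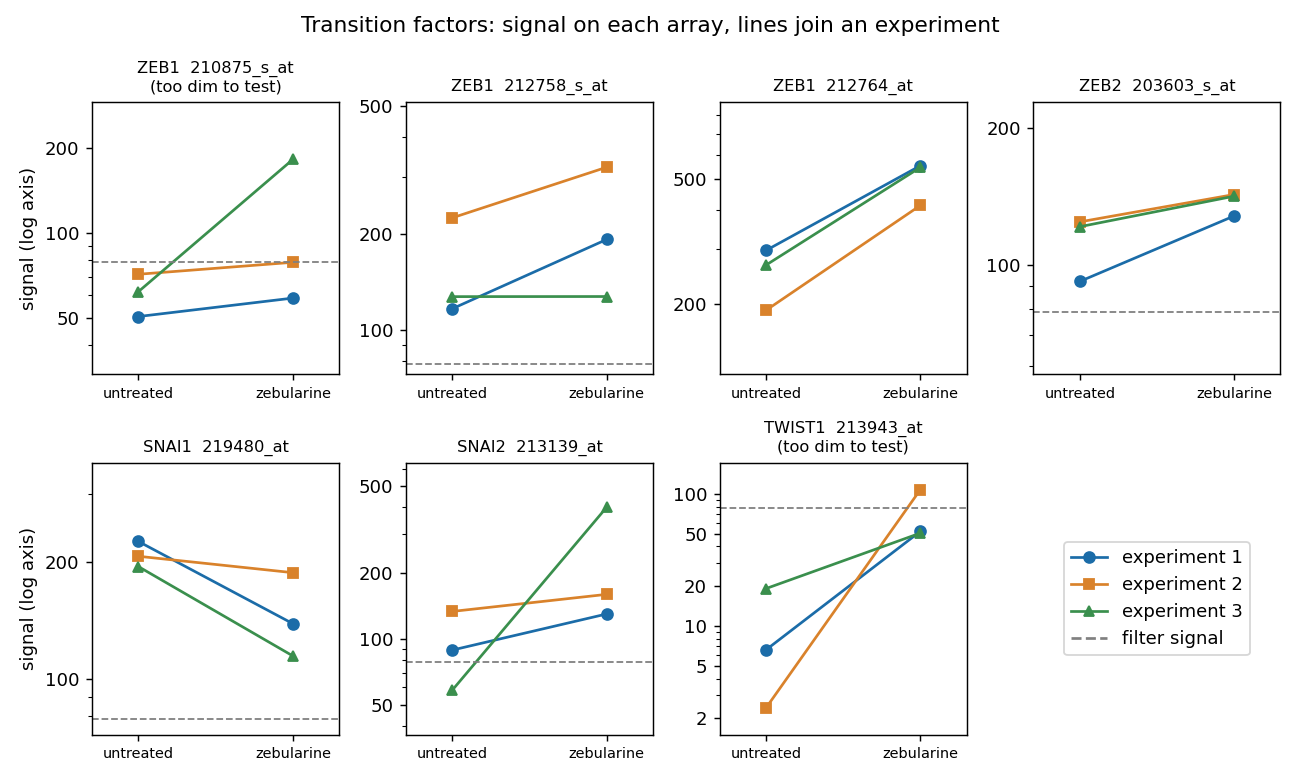
MAS5 signal of the 7 transcription factor probe sets on each array (log axis, scaled per panel), untreated at left and zebularine at right; each line joins the 2 arrays of an experiment, and the dashed line marks the filter signal of 78.6. ZEB1 212764_at is higher on the treated array by a like amount in all 3 experiments, SNAI1 is lower in all 3, and the steepest line of SNAI2 is that of experiment 3.

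SPARC, a secreted glycoprotein that binds collagen and calcium and modulates matrix assembly, lay lower at both of its probe sets. At 212667_at the untreated signals were 2223, 1973 and 2553 and the treated signals 1193, 865 and 1658. The groups did not overlap. The means were 2249.6 ± 291 and 1239 ± 399 (SD, n = 3). The difference was -0.89 ± 0.28 (limma, adjusted p = 0.204), with a 95% interval of -1.49 to -0.30. With the experiment as a block it passed (limma, adjusted p = 0.0305), at a standard error of 0.20. The experiments gave -0.89, -1.17 and -0.62. Without experiment 1 or 2 the call with the block ended (limma, adjusted p = 0.132 and 0.0541, at -0.90 and -0.75), and without experiment 3 it held (limma, adjusted p = 0.0356, at -1.03).

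The brighter SPARC probe set, 200665_s_at, had a smaller difference and was not called. Its signals were 8598, 8271 and 6809 on untreated and 7081, 4499.5 and 5972 on treated arrays, and the groups overlapped. The difference was -0.45 ± 0.25 (limma, adjusted p = 0.498; 0.153 with the block). Experiment 2 gave -0.88, against -0.28 and -0.19 in experiments 1 and 3. At both probe sets the difference was most negative in experiment 2, and in each experiment it was smaller at 200665_s_at.

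The sequence before the SPARC start is shown as for ZEB1, as the marker with a call. RefSeq lists 1 start, and the 250 bases before it are chr5:151686916-151687165 of GRCh38.p14, minus strand, written 5′ to 3′ with CpG dinucleotides in capitals.
SPARC: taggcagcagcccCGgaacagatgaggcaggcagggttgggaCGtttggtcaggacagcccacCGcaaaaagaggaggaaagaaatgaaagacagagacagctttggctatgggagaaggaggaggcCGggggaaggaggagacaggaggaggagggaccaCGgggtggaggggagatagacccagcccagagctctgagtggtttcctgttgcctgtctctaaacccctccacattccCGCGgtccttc
It holds 7 CpG dinucleotides, fewer than the median window, and 58.9% of all windows hold at least as many. CACCTG or CAGGTG was not found in it. RefSeq windows were at hand for 6 of the 10 members. That of VIM held 8 CpG dinucleotides, S100A4 7 and ZEB2 12, and the 2 windows of ACTA2 held 17 and 6.

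VIM encodes vimentin, the intermediate filament protein of mesenchymal cells. Its signal was already high without treatment, at 28338, 23557 and 19723, and was 30682, 33109.6 and 20122 on treated arrays. The groups overlapped, and the spread between experiments exceeded the difference. The difference was 0.21 ± 0.27 (limma, adjusted p = 0.798; 0.338 with the block), positive in all 3 experiments at 0.11, 0.49 and 0.03. The 95% interval ran from -0.38 to 0.80, and with the block from -0.04 to 0.47.

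S100A4, a small calcium-binding protein also called fibroblast-specific protein, had no steady direction. Signals were 63.1, 194.5 and 75.7 on untreated and 86.0, 109 and 186 on treated arrays. The experiments gave 0.37, -0.75 and 1.13, so that it was the tested member whose sign differed between them. The mean was 0.25 ± 0.49 (limma, adjusted p = 0.876; 0.796 with the block), and -0.19 without experiment 3.

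ACTA2 encodes smooth muscle alpha-actin, the contractile actin of myofibroblasts. At 200974_at the signals were 873, 453 and 627 on untreated and 644, 444 and 465 on treated arrays. The groups overlapped. The difference was -0.29 ± 0.30 (limma, adjusted p = 0.729; 0.503 with the block), with -0.43 and -0.42 in experiments 1 and 3 and -0.03 in experiment 2. Without the untreated array of experiment 1 it was -0.06. The other ACTA2 probe set, 215787_at, was under the filter on all arrays, between 7.1 and 40.6, and its differences of -0.42, -1.07 and 1.28 had no common sign.

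TAGLN, the actin-binding protein SM22 alpha of smooth muscle and myofibroblasts, was dim at its 1 probe set. Signals were 75.9, 75.9 and 46.3 on untreated and 72.3, 94.3 and 73.4 on treated arrays. The groups overlapped and 1 array reached the filter signal. The differences were -0.06, 0.26 and 0.52, with a mean of 0.24.

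**Figure D2:**
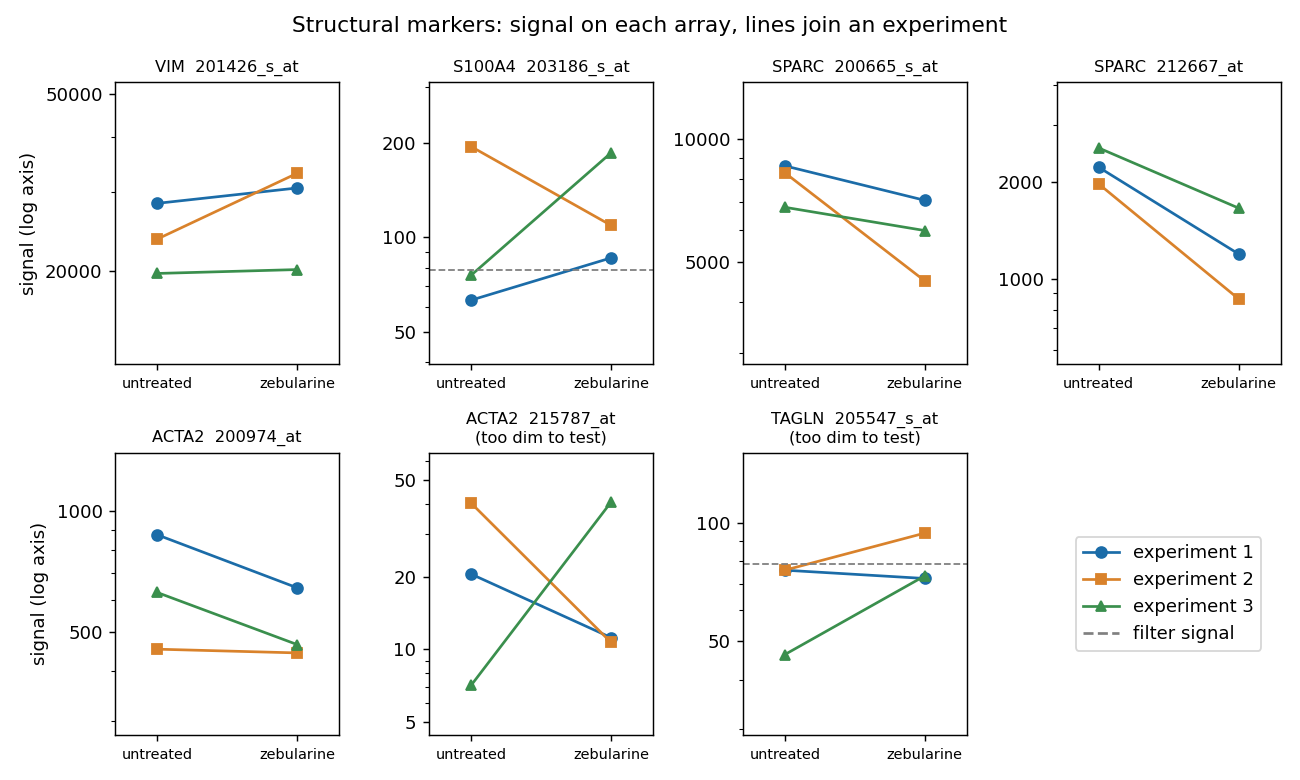
MAS5 signal of the 7 structural marker probe sets on each array (log axis, scaled per panel), untreated at left and zebularine at right, with a line for each experiment and the filter signal of 78.6 as a dashed line where it falls in the panel. Both SPARC probe sets are lower on every treated array of a pair, VIM is nearly level in experiments 1 and 3, and the S100A4 lines cross.

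**Figure D3:**
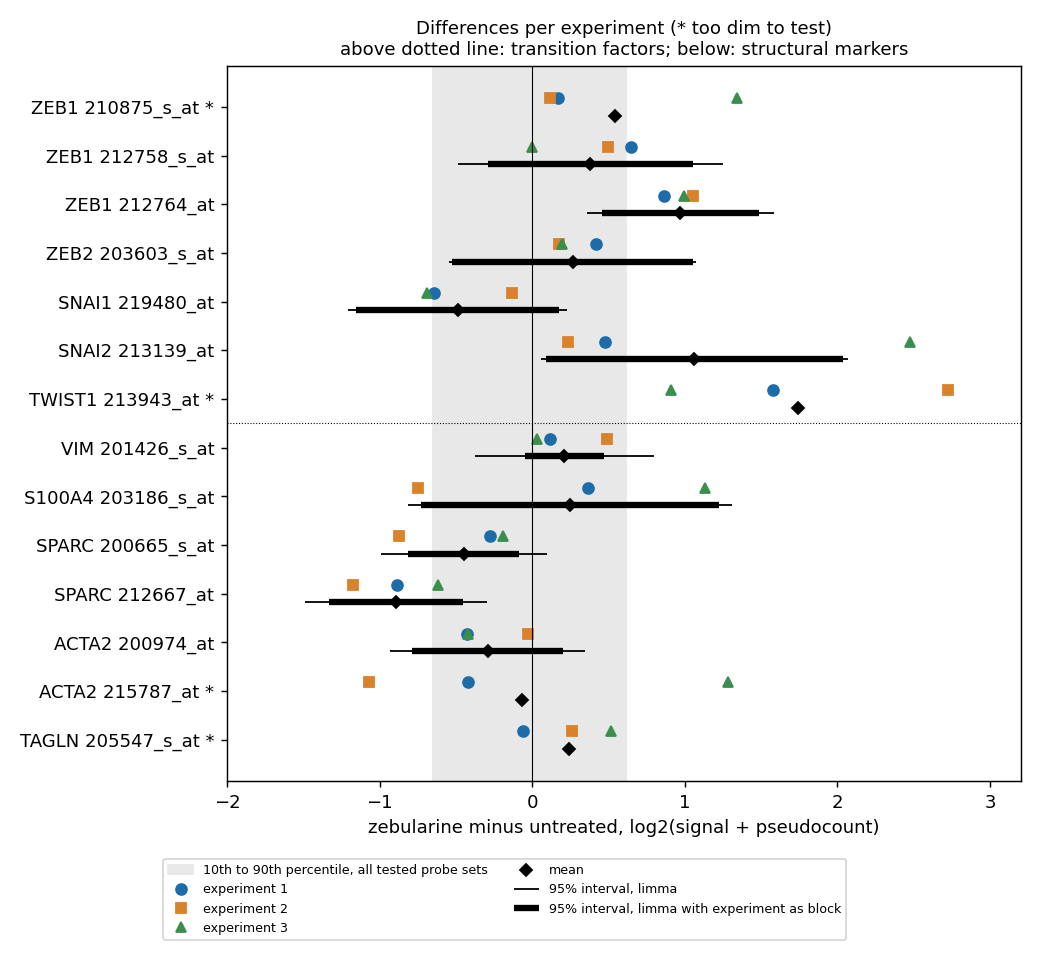
Zebularine minus untreated on the log2(signal + 16.34) scale for the 14 probe sets: coloured symbols are the 3 experiments, diamonds the mean, thin bars the 95% interval of limma and thick bars that of limma with the experiment as a block (tested probe sets only). The grey band spans -0.65 to 0.61, the 10th to 90th percentile of all tested probe sets; the means of ZEB1 212764_at, SNAI2 and TWIST1 lie to its right and that of SPARC 212667_at to its left.

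Surrounding genes of the transition were read from the same fits, each gene by its brightest tested probe set. Of 6 tested other transition factors, the architectural chromatin protein gene HMGA2 rose and the factor gene SOX4 fell. HMGA2 went from 120, 228 and 133 to 362, 589.6 and 1018, a rise of 1.86 ± 0.38 (limma, adjusted p = 0.0485; 0.00773 with the block). SOX4 went from 1211, 1447 and 1163 to 558, 343 and 592 and fell by 1.36 ± 0.27 (limma, adjusted p = 0.0476; 0.0132 with the block). Both genes moved the same way in all 3 experiments. Without the block, leaving out 1 array kept the call of SOX4 in 0 of 6 fits (limma, adjusted p from 0.0515 to 0.245) and that of HMGA2 in 2 of 6, without treated 1 and without untreated 2. With the block both were called without each experiment in turn. The median over the 6 was 0.13.

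Of 13 tested other mesenchymal markers FN1, fibronectin, was called at -1.82 (limma, adjusted p = 0.0241), in 2 of 6 fits without 1 array and, with the block, in all 3 without 1 experiment; the list's median was 0.10. In the list of SPARC relatives and matricellular proteins none of 10 passed without the block in limma, with 4 at an unadjusted p under 0.05 and a median of 0.07. With the block TNC, tenascin-C, was higher, at 1.65, while CCN1 and TGFBI were lower, at -1.25 and -0.55 (limma, adjusted p = 0.0166, 0.0211 and 0.0419). The call of TNC was lost without experiment 1 (limma with the block, adjusted p = 0.128), that of CCN1 without 1 or 3 (0.056 and 0.113) and that of TGFBI without any 1 (0.0602 to 0.12).

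Contractile and actin-binding genes, the wider group of ACTA2 and TAGLN, were not called without the block: 0 of 16 in limma, with 4 at an unadjusted p under 0.05. Of the 16 differences 12 were negative, against 6887 of all 13545 tested probe sets, with a median of -0.14. With the block the tropomyosin gene TPM2 was higher, at 1.46, and the myosin light chain gene MYL9 lower, at -1.04 (limma, adjusted p = 0.0345 and 0.0393). TPM2 varied between experiments, at 0.52, 1.21 and 2.65, and its call was lost without experiment 3 (limma with the block, adjusted p = 0.156). That of MYL9 was lost without experiment 1 or 3 (0.106 and 0.202). SRF and its cofactors, which control such genes, had 0 calls among 3 tested (1 at an unadjusted p under 0.05), and the brightest, MRTFB, stood at -0.10.

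Relatives of VIM and S100A4 had no call in limma with or without the block. Of 7 intermediate filament genes other than keratins 0 passed (0 at an unadjusted p under 0.05), with a median of 0.29 and NEFL, the brightest, at 0.56. Of 8 other S100 genes 0 passed (1 at an unadjusted p under 0.05), with a median of 0.13 and S100A10, the brightest, at -0.04.

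On the epithelial side, 0 of 11 tested markers passed in limma (2 at an unadjusted p under 0.05); 5 of the differences were positive and 6 negative, with a median of -0.14. With the block the plakophilin gene PKP3 was lower at -0.998 (limma, adjusted p = 0.0303), a call lost without experiment 1 or 3 (0.158 and 0.114). The largest difference in size on the list, chosen after its values were seen, was that of the keratin gene KRT19, at 1.49 (limma, adjusted p = 0.251; 0.0591 with the block). None of 4 regulators of the epithelial state passed in either fit (1 at an unadjusted p under 0.05); KLF4, the brightest, differed by 0.38. Of 14 genes of the TGF-beta pathway, a main inducer of the transition, 0 passed in either fit (3 at an unadjusted p under 0.05), with a median of -0.11, and the receptor gene TGFBR2 was at -0.64.

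All 8 tested kidney and renal carcinoma markers had negative differences, against 6887 of all 13545 tested probe sets, with a median of -0.39. PAX2, PAX8, NNMT and CD70 had no common sign over the experiments, and CD70 was at -0.02. Of those too dim to test, CUBN and AQP1 were higher on the treated array in each experiment, SLC17A3 was lower in each and the others were mixed. CDH6, a kidney cadherin, was called at -2.85 (limma, adjusted p = 0.0206). Its call held in 4 of 6 fits without 1 array and, with the block, in all 3 without 1 experiment. Markers of other cell types were mostly under the filter: 2 of 9 for fibroblasts were tested, 1 of 5 for smooth muscle, 1 of 7 for endothelium and 1 of 6 for leukocytes, and 0 of these 5 genes passed in either limma fit, with 1 at an unadjusted p under 0.05. COL1A1, a fibroblast collagen, was at 0.94, SMTN of smooth muscle at 0.43, TEK of endothelium at -0.84 and ITGAM of leukocytes at 0.94.

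**Figure D4:**
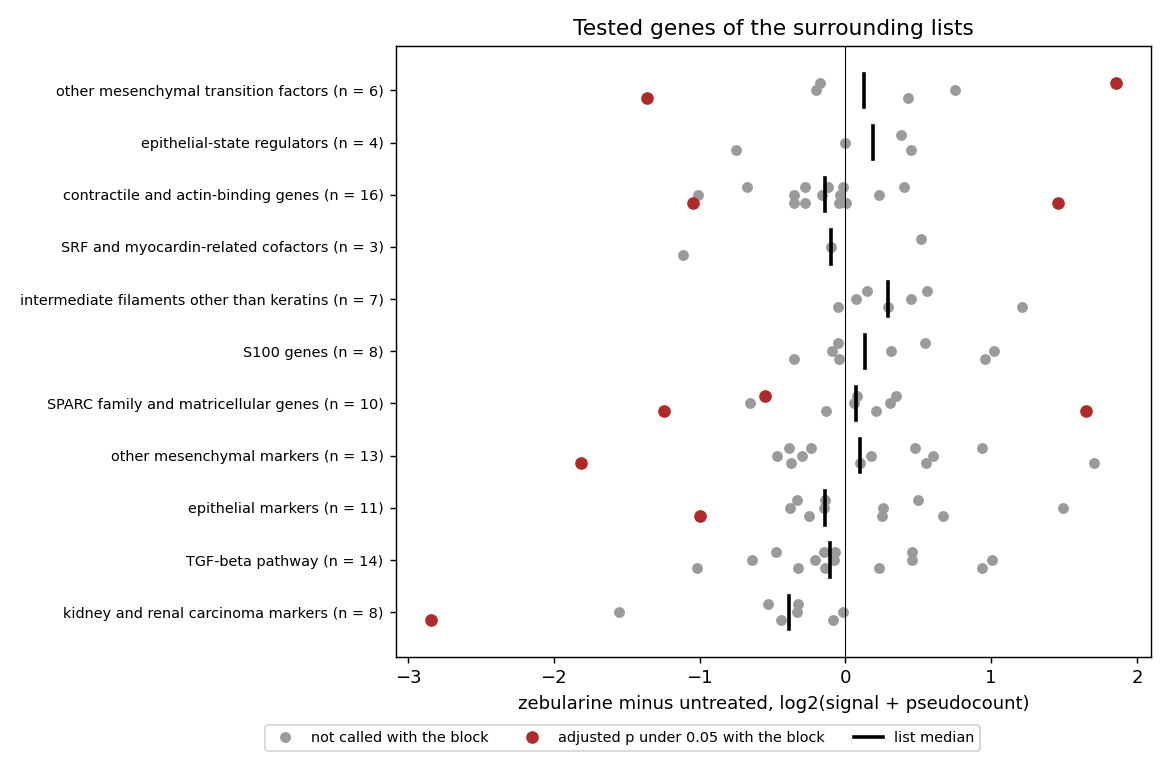
Each point is a tested gene of 1 of the 11 lists named at left (the members and the markers of fibroblasts, smooth muscle, endothelium and leukocytes are not drawn), placed by zebularine minus untreated on the log2(signal + 16.34) scale; red points have an adjusted p under 0.05 in limma with the experiment as a block, and black bars are list medians. Red points lie on both sides of 0, such as HMGA2 at 1.86 and SOX4 at -1.36 among the transition factors, and the medians of the lists drawn run from -0.39 to 0.29.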

How the data were processed

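Per the submitters' processing notes, the authors made the deposited intensity values with MAS5, which gives 1 linear signal per probe set and array; for its version and settings, the labels give nothing. The trimmed mean was alike on all 6 arrays, at 500.2. Each array is 1 culture, grouped by its title, so the precision rests on 3 arrays a group.

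Signals were taken as log2(signal + 16.34), the pseudocount being the median divided by 8, and kept at or above 78.6, the 40th percentile, on at least 3 arrays (13545 of 22215 probe sets after 62 controls). The comparison used limma 3.58.1 (R 4.3.3, mean-variance trend, two-sided, Benjamini-Hochberg over all tested probe sets), tested on simulated data. The untreated and treated array of a number departed from their groups together (correlation 0.323, 0.21 and 0.272 across tested probe sets). The titles give both arrays the same replicate number but state no pairing. No pair of arrays shared over 0.198% of values.

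Of the probe sets 19070 had 1 symbol, 1043 several and 2164 none listed; all 14 member probe sets matched RefSeq by Entrez number, with 0 symbols changed. The members and lists were chosen with earlier results of these data known. All members are named, and of each other list up to 4 called genes or else the brightest. Alternatives covered the block, pseudocount, filter, scaling, variance trend and left-out arrays. Promoter windows came from RefSeq GRCh38.p14. Figures used matplotlib 3.10.9 in Python 3.11.15.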

Additional observations from a re-analysis of the deposited data

How the results depend on the processing

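Over all probe sets the count of limma calls was 84, and 572 with the replicate block, 55 with a pseudocount 4 times smaller, 42 without the filter and 6 without the mean-variance trend; leaving out arrays gave 0 (without treated 2) to 96 (without untreated 2). In alternatives chosen after seeing the data the block gave 194, 1023 and 335 calls without experiment 1, 2 and 3, and 395 without the filter. Among transcription factor probe sets the count of 0 became 1 with the block, and among structural markers 1 with the block, 1 with the block without experiment 3 and 1 with the block without the filter; leaving out arrays without the block gave 0 to 0 for both. Genes of the other lists went from 4 calls to 10 with the block, 2 with the smaller pseudocount, without the filter, with the stricter filter or with quantile normalization, and 0 without the trend; 18 with the block without experiment 2 and 7 with the block without the filter; leaving out arrays gave 0 to 4. Without the block, ZEB1 212764_at and SPARC 212667_at were called in 0 of 17 fits (limma, adjusted p from 0.146 to 0.722 and from 0.155 to 0.592). The sign of S100A4 turned without untreated 1 (-0.02), without treated 3 (-0.03) and without experiment 3 (-0.19, also with the block); over left-out arrays it ran from -0.19 to 0.75, while the other tested member probe sets kept theirs in every setting run. The median of the transcription factors ran from 0.22 to 0.68 and that of the markers from -0.46 to -0.06 over the settings. The cause of these changes was not tested. The block changed no other member's call. Low signal over background limits the dim members most: TWIST1 and TAGLN were fitted only without the filter, and neither was called there.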

Other observations

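Zebularine minus untreated, taken with its sign, was highest in experiment 3 for 7 of the 14 member probe sets, in experiment 2 for 5 and in experiment 1 for 2; experiment 3 was highest for 36.6% of all 22215 probe sets. This count was chosen after the values were seen. The 7 were ZEB1 210875_s_at at 1.34, SNAI2 at 2.48, S100A4 at 1.13, ACTA2 215787_at at 1.28, TAGLN at 0.52 and both SPARC probe sets, whose values of -0.19 and -0.62 were the least negative of their 3. TWIST1 at 0.91, ZEB1 212758_s_at at 0.00, VIM at 0.03 and SNAI1 at -0.69 had their lowest value in experiment 3.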
